A study of Mus musculus with 14 samples.

Results

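The ligands and receptors of the epidermal growth factor (EGF) family were examined in the colon of mice with and without experimental colitis. The 10 genes comprised 7 ligands of the EGF receptor (*Areg*, *Ereg*, *Epgn*, *Btc*, *Hbegf*, *Tgfa* and *Egf*), the neuregulin *Nrg1*, and the receptors *Egfr* and *Erbb3*. They were found through the RefSeq accession that the array design gives for each probe, and were 10 of 19096 named genes. They had 21 of 41174 probes, of which 20 were among the 29520 tested. All 10 genes had at least 1 tested probe, so none was lost to the filter on dim signals.

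Total RNA of whole colons was hybridised to 14 1-colour Agilent arrays, with 1 female C57BL/6 mouse per array, aged 4 to 6 months and fed chow. Flox mice carry loxP-flanked alleles of *Nr3c1* (GR fl/fl), which encodes the glucocorticoid receptor (GR), and served as controls. GR iKO mice carry the same alleles plus Villin-cre, which deletes GR in the intestinal epithelium and leaves it in the other cells of the colon wall. Both genotypes received regular water (4 Flox and 4 GR iKO mice) or drank water with 2.5% dextran sulfate sodium (DSS), a polymer toxic to the colonic lining, for 7 days (3 Flox and 3 GR iKO mice). The RNA came from the whole organ, so fewer cells of a type and less RNA per cell cannot be told apart. Levels are log2 signals minus the 75th percentile of the array, and describe a probe relative to the other probes of its array. Levels of different probes are not comparable with each other.

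EGF family ligands are made as membrane-bound precursors and are released by metalloproteases. Amphiregulin, epiregulin, epigen, betacellulin, HB-EGF, TGF-α and EGF bind EGFR, and the neuregulins bind ERBB3 or ERBB4. The receptors signal through RAS, MAP kinase, PI3 kinase and STAT3, and in the gut this signalling drives proliferation and migration of epithelial cells as wounds close.

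The ligand genes *Epgn*, *Ereg*, *Areg* and *Btc* lie in this order on mouse chromosome 5, with no other protein-coding gene between neighbours in the RefSeq table of GRCm38.p6. The 250 bases upstream of the annotated start are printed for the 3 of them that the RefSeq promoter table holds, because these genes rose on DSS in both genotypes. They are *Areg* at chr5:91139349-91139598 on the plus strand, *Epgn* at chr5:91027267-91027516 on the plus strand and *Btc* at chr5:91402995-91403244 on the minus strand, each written 5′ to 3′ along the gene. Capitals mark matches to the cyclic AMP response element TGACGTCA (CRE), the GC box GGGCGG or the TATA box TATAAA.
Areg: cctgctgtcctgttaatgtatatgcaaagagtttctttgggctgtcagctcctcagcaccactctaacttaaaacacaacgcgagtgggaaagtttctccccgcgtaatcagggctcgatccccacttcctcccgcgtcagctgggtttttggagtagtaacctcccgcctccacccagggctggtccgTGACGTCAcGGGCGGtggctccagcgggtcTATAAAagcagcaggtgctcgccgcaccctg
Epgn: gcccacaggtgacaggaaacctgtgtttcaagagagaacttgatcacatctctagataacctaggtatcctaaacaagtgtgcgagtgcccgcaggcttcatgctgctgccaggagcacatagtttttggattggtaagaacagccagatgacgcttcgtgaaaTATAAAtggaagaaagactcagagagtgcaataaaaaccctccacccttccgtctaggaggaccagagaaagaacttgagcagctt
Btc: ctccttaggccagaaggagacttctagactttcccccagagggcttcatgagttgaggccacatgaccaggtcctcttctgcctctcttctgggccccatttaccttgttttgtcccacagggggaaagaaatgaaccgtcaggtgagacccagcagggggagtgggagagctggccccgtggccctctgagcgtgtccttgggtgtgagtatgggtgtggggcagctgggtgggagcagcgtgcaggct
The *Areg* window held the CRE from −61 to −54, a GC box from −52 to −47 and a TATA box from −31 to −26, counted from the start site, and none of these matches overlapped. The *Epgn* window held TATAAA from −86 to −81. Both strands of 32851 promoter windows of this length were searched, of which 1.55% held the CRE, 32.7% the GC box and 12.4% the TATA box. The AP-1 element TGANTCA (6.75% of windows), the palindromic glucocorticoid response element, AGAACA and TGTTCT with any 3 bases between them (0.00913%), and the NF-kB motif (3.9%) were searched too. The letters of these 3 motifs were not found in the windows of *Areg*, *Epgn*, *Btc*, *Tgfa*, *Egfr* and *Egf*. The *Btc* and *Egf* windows held no match to any of the 6 motifs, whereas *Tgfa* held 2 GC boxes and *Egfr* held 1.

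The labels were first checked with *Nr3c1*. Its brightest probe in GR iKO colons was at 57.3% of the Flox signal on water (two-sided exact permutation p = 0.0286, the smallest that 4 against 4 arrays allow) and at 56.1% on DSS (exact p = 0.1, the smallest for 3 against 3). Arrays differed in brightness, with 75th percentiles from 262 (Flox DSS replicate 4) to 1003 intensity units, and each read 62.6% to 71.3% of its probes well above background. No spot was saturated.

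DSS against water was compared within each genotype to ask which ligands and receptors responded to injury. Of the 10 genes, each read by its brightest probe, 5 rose and 1 fell in Flox colons at an adjusted p under 0.05 in limma, against 27.4% and 26.9% of all 15537 genes tested. In GR iKO colons 7 rose and 1 fell, against 24.5% and 22.6% of all genes. Levels on DSS and on water did not overlap for 6 of the 10 genes in Flox, against 59.9% of all genes, and for 8 of 10 in GR iKO, against 49.2%. The median log2 difference of the 10 genes was 0.80 in Flox and 1.54 in GR iKO, whereas that of all genes was −0.03 and 0.00. *Areg*, *Ereg*, *Epgn*, *Btc* and *Egfr* rose in both genotypes, though *Ereg* entered the test only through its DSS arrays. *Hbegf* and *Nrg1* passed the test in GR iKO, *Tgfa* fell in Flox, *Egf* fell in GR iKO, and *Erbb3* passed it in neither. These calls are those of the brightest probes, and other probes differed. In Flox 1 of 4 *Egfr* probes and 3 of 4 *Nrg1* probes were called higher, and both *Tgfa* and *Erbb3* had 1 probe called higher and 1 called lower. Of these *Nrg1* probes, A_52_P369761 and A_52_P52635 entered the test through their DSS arrays.

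**Figure D1:**
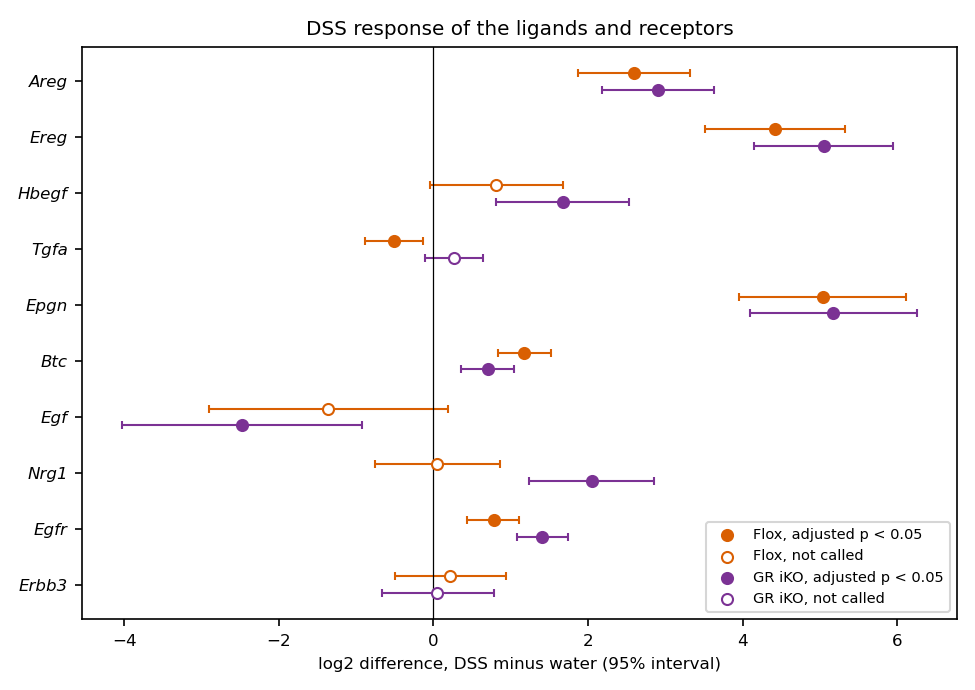
Log2 difference between DSS and water (x axis, 95% interval of limma) for the brightest probe of each gene, in Flox (orange) and GR iKO colons (purple); filled points had an adjusted p under 0.05. The 3 largest rises were those of *Epgn*, *Ereg* and *Areg*, between 2.59 and 5.17 in both genotypes, and the intervals of *Egf* were the widest.

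These differences are relative to the signal of the whole array. With arrays scaled to the 8 usable probes for spiked-in transcripts instead, the median difference over all probes moved from −0.09 to −2.41 in Flox and from −0.02 to −0.92 in GR iKO. On that scale, 8 of the 10 genes in Flox and 9 of 10 in GR iKO lay above the median of all probes. The scaling shifts all probes of an array by the same amount, so it could not have changed these counts. The signs of the *Hbegf*, *Btc*, *Nrg1*, *Egfr* and *Erbb3* differences in Flox and of *Tgfa*, *Btc* and *Erbb3* in GR iKO turned negative, however, so every direction given here is one relative to the other probes of the array.

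*Epgn* encodes epigen, a low-affinity EGFR ligand. Its levels were −5.24, −4.97, −4.68 and −5.60 in Flox on water, −4.90, −4.55, −5.45 and −5.38 in GR iKO on water, 0.32, 0.21 and −0.79 in Flox on DSS, and 1.57, −0.89 and −0.37 in GR iKO on DSS. Every DSS colon was above every water colon, and the DSS groups overlapped. The log2 difference was 5.04 ± 0.50 (SE) in Flox, a 32.9-fold rise (limma adjusted p = 8.68e-06), and 5.17 ± 0.50 in GR iKO, or 36.1-fold (adjusted p = 1.25e-05). The differences were 3.27 and 3.52 with normexp background correction, and 2.71 and 4.27 with spike-in scaling. The probe was well above background on 3 of 4 Flox water arrays and on all other arrays.

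*Ereg* encodes epiregulin, which binds EGFR and ERBB4 and is produced in regenerating mucosa. Its levels were −6.89, −6.08, −6.81 and −7.27 in Flox on water, −7.47, −6.85, −8.01 and −6.90 in GR iKO on water, −2.33, −1.71 and −3.00 in Flox on DSS, and −1.44, −2.57 and −2.76 in GR iKO on DSS. None of the 8 water arrays read this probe well above background, and all 6 DSS arrays did. The rise was therefore at least 11.8-fold in Flox (limma adjusted p = 6.02e-06) and at least 12.1-fold in GR iKO (adjusted p = 4.44e-06). The probe entered the test only through the DSS arrays, where it was high, so its p values are no independent support for a rise. These bounds set the DSS mean against the lowest signal that counted as well above background on each water array, or against the probe's own signal where that was higher. They depend on the scale, and the log2 differences were 1.86 and 1.88 with normexp background correction, and 2.09 and 4.15 with spike-in scaling.

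*Areg* encodes amphiregulin, an EGFR ligand made by injured epithelium and by several leukocyte types. Its levels were 0.22, 0.17, −0.39 and −0.77 in Flox on water, −0.08, 0.19, −0.52 and −0.96 in GR iKO on water, 2.23, 1.92 and 3.04 in Flox on DSS, and 2.71, 2.28 and 2.69 in GR iKO on DSS. The DSS and water colons did not overlap, whereas the genotypes did under both treatments. The rise was 6.03-fold in Flox (log2 difference 2.59 ± 0.33, limma adjusted p = 5.41e-05) and 7.48-fold in GR iKO (2.90 ± 0.33, adjusted p = 4.03e-05). With spike-in scaling the Flox difference was 0.27 and was not called (adjusted p = 0.525). Within the 3 slides that held both treatments of a genotype, the log2 difference lay between 1.76 and 3.81 in Flox and between 2.78 and 3.65 in GR iKO.

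*Btc* encodes betacellulin, a ligand of EGFR and ERBB4. Its levels were −2.92, −2.86, −2.88 and −2.98 in Flox on water, −2.71, −2.62, −2.55 and −3.08 in GR iKO on water, −1.61, −1.52 and −2.08 in Flox on DSS, and −1.90, −2.20 and −2.03 in GR iKO on DSS. All DSS colons were above all water colons. The change was smaller than for the other ligands of the cluster, at 2.26-fold in Flox (log2 difference 1.17 ± 0.16, limma adjusted p = 7.9e-05, but −1.15 with spike-in scaling) and 1.62-fold in GR iKO (0.70 ± 0.16, adjusted p = 0.00365, but −0.20 with spike-in scaling). A second *Btc* probe was too dim to be tested.

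*Hbegf* encodes HB-EGF, an immediate early product of stressed epithelium and macrophages. Its levels were 1.35, 1.11, 0.85 and 0.45 in Flox on water, 1.00, 1.62, 0.64 and 0.24 in GR iKO on water, 1.20, 1.41 and 2.64 in Flox on DSS, and 2.85, 2.81 and 1.97 in GR iKO on DSS. Flox DSS replicate 4 was high, whereas the other 2 Flox DSS colons lay within the range of the water colons. In GR iKO all 3 DSS colons were above all water colons, with a 3.18-fold rise (log2 difference 1.67 ± 0.40, limma adjusted p = 0.00464; 0.77 and adjusted p = 0.152 with spike-in scaling). The Flox difference of 0.81 ± 0.40 (adjusted p = 0.102) did not pass the test, and the DSS responses of the genotypes differed by 0.85 ± 0.56 (interaction adjusted p = 0.439).

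*Egf* itself went the other way in most mice. Its levels were −1.91, −1.89, −1.81 and −2.03 in Flox on water, −1.61, −1.53, −1.66 and −2.00 in GR iKO on water, −4.39, −4.39 and −1.03 in Flox on DSS, and −5.31, −2.93 and −4.31 in GR iKO on DSS. All DSS colons were below every water colon except Flox DSS replicate 4, the array with the lowest 75th percentile, which was above all of them. The fall was 5.58-fold in GR iKO (log2 difference −2.48 ± 0.71, limma adjusted p = 0.0136), and the Flox difference was −1.36 ± 0.71 (adjusted p = 0.128). Without Flox DSS replicate 4 the Flox difference was −2.48 (adjusted p = 0.000858), and without GR iKO DSS replicate 1 the GR iKO difference was −1.92 (adjusted p = 0.0626).

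*Tgfa* encodes TGF-α, made by surface colonocytes. By its brightest probe (A_51_P415126), levels were −3.63, −3.50, −3.22 and −3.23 in Flox on water, −3.44, −3.67, −3.27 and −3.10 in GR iKO on water, −3.66, −4.17 and −3.88 in Flox on DSS, and −3.29, −2.92 and −3.12 in GR iKO on DSS. The Flox DSS colons were below all other colons, except that 1 GR iKO water colon at −3.67 lay within their range. The fall in Flox was 1.42-fold (log2 difference −0.51 ± 0.17, limma adjusted p = 0.0259), and turned to 0.19 with normexp background correction. It was no longer called without Flox water replicate 3 (adjusted p = 0.0691), Flox water replicate 4 (adjusted p = 0.0661) or Flox DSS replicate 2 (adjusted p = 0.121). The second probe (A_52_P555423) rose in both genotypes, by 0.55 ± 0.20 in Flox (adjusted p = 0.0328) and by 1.15 ± 0.20 in GR iKO (adjusted p = 0.00064), so the direction of *Tgfa* in Flox depends on the probe. With spike-in scaling the second probe was at −1.77 in Flox and 0.25 in GR iKO.

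**Figure D2:**
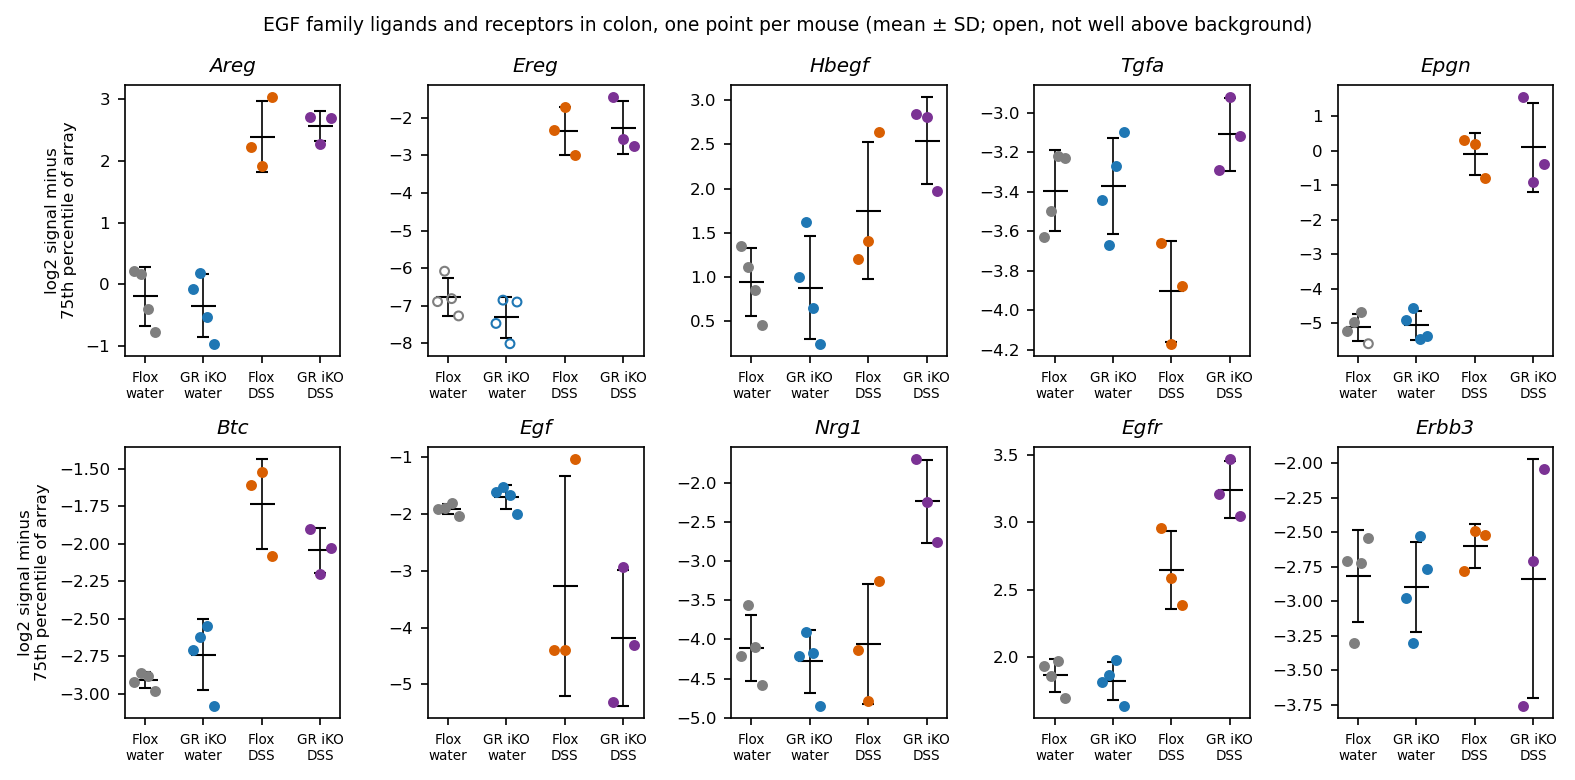
Level of the brightest probe of each gene (y axis, log2 signal minus the 75th percentile of the array, with a scale of its own in each panel) in the 4 groups, with 1 point per mouse and mean ± SD in black; open points were not well above background. *Epgn*, *Ereg* and *Areg* separate all DSS colons from all water colons, and 1 Flox DSS colon stands at −1.03 for *Egf* beside 2 at −4.39.

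*Nrg1* encodes neuregulin 1, a ligand of ERBB3 and ERBB4 made by stromal cells and macrophages of the gut. By its brightest probe (A_52_P158772), levels were −4.21, −3.56, −4.10 and −4.58 in Flox on water, −4.21, −3.90, −4.17 and −4.85 in GR iKO on water, −4.13, −4.79 and −3.26 in Flox on DSS, and −1.70, −2.25 and −2.76 in GR iKO on DSS. All GR iKO DSS colons were above every other colon, and the Flox DSS colons overlapped the water colons. The log2 difference was 2.05 ± 0.37 in GR iKO, a 4.13-fold rise (limma adjusted p = 0.000893), and 0.05 ± 0.37 in Flox (adjusted p = 0.916), a value that was −0.09 with quantile normalization and −2.27 with spike-in scaling. By the mean of the 4 *Nrg1* probes the Flox difference was 1.24 and was called (adjusted p = 0.000929).

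The other 3 *Nrg1* probes carry another RefSeq accession, and all 3 rose in both genotypes. Probe A_52_P369761 was at −6.04, −5.65, −6.17 and −6.42 in Flox on water, −6.45, −6.15, −6.57 and −5.90 in GR iKO on water, −4.40, −4.68 and −4.73 in Flox on DSS, and −1.62, −2.94 and −2.33 in GR iKO on DSS. Only 1 of 8 water arrays read it well above background, so it passed the filter through the DSS arrays, where it was high. The p values of this probe are therefore no independent support for a rise. Its log2 difference was 1.47 ± 0.28 in Flox (limma adjusted p = 0.000907), a value that rests on water levels of which 1 of 4 was well above background, whereas in GR iKO the rise was at least 11.5-fold (adjusted p = 1.85e-06). The rise of A_52_P369769 was 1.70 ± 0.26 in Flox and 3.35 ± 0.26 in GR iKO. Probe A_52_P52635 did not clear background on the 8 water arrays, so it entered the test only through the DSS arrays. It rose at least 2.21-fold in Flox and at least 2.82-fold in GR iKO. With spike-in scaling the log2 differences of these 3 probes were −0.86, −0.63 and −0.59 in Flox and 3.07, 2.45 and 1.45 in GR iKO. The bounds above therefore hold only relative to the other probes of the array.

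Of the receptors, *Egfr* encodes the shared receptor of the first 7 ligands. By its brightest probe (A_52_P106259), levels were 1.94, 1.86, 1.97 and 1.70 in Flox on water, 1.82, 1.87, 1.98 and 1.64 in GR iKO on water, 2.96, 2.59 and 2.39 in Flox on DSS, and 3.21, 3.47 and 3.05 in GR iKO on DSS. The 3 ranges, water, Flox DSS and GR iKO DSS, did not overlap. The rise was 1.71-fold in Flox (log2 difference 0.78 ± 0.15, limma adjusted p = 0.00108, but −1.55 with spike-in scaling) and 2.66-fold in GR iKO (1.41 ± 0.15, adjusted p = 2.6e-05; 0.51 and adjusted p = 0.246 with spike-in scaling).

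The 4 *Egfr* probes did not move alike, and by their mean the difference was 0.25 in Flox, which was not called (limma adjusted p = 0.225), and 1.02 in GR iKO. A second probe of the same RefSeq transcript (A_52_P674338) rose by 1.87 ± 0.23 in GR iKO (limma adjusted p = 5.78e-05) and had a difference of 0.48 ± 0.23 in Flox (adjusted p = 0.097). The 2 probes of the other transcript were not called in either genotype, with differences of −0.17 and −0.06 in Flox and of 0.33 and 0.46 in GR iKO. Which part of each transcript the probes cover was not determined here.

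*Erbb3* encodes the kinase-impaired receptor of the neuregulins. By its brightest probe (A_51_P342050), levels were −2.71, −3.30, −2.72 and −2.54 in Flox on water, −2.98, −3.30, −2.53 and −2.77 in GR iKO on water, −2.78, −2.49 and −2.52 in Flox on DSS, and −3.76, −2.71 and −2.04 in GR iKO on DSS. The 4 groups overlapped, and the GR iKO DSS colons spread over the widest range. The log2 difference was 0.22 (95% interval −0.50 to 0.94) in Flox and 0.05 (−0.67 to 0.78) in GR iKO, so neither a moderate rise nor a moderate fall can be told from none. The other *Erbb3* probes disagreed in Flox, where A_51_P414813 fell by 1.01 (limma adjusted p = 0.0117) and A_51_P488243 rose by 0.94 (adjusted p = 0.0243, but −1.39 with spike-in scaling).

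**Figure D3:**
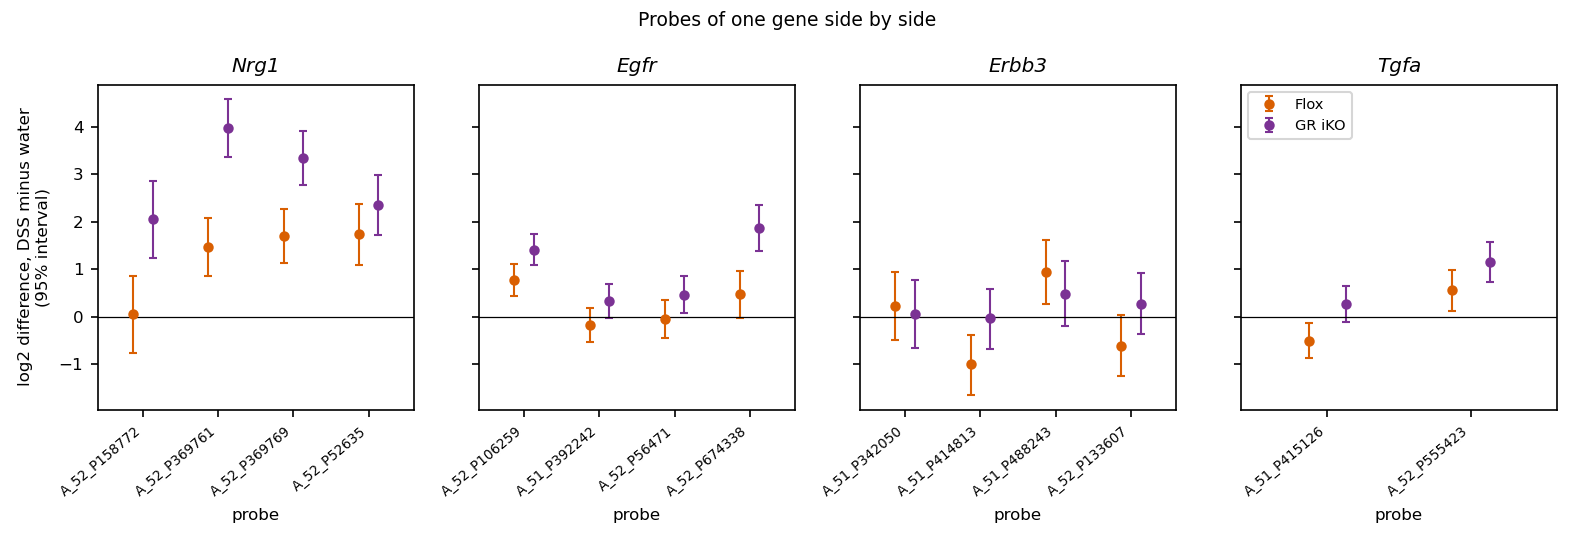
Log2 difference between DSS and water (y axis, 95% interval of limma) of every tested probe (x axis) of the 4 genes with several probes, in Flox (orange) and GR iKO (purple). The probes of *Nrg1*, *Egfr*, *Erbb3* and *Tgfa* differ in size or sign, and 3 of 4 *Nrg1* probes in Flox lie between 1.47 and 1.73 while the brightest lies at 0.05.

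GR iKO and Flox colons were compared on water to ask whether epithelial GR loss alone altered these genes. None of the 10 was called by limma, against 0.00644% of all genes (1 gene), and 0 of 10 had an unadjusted p under 0.05, against 2.52% of all genes. The same fit did not call the brightest probe of the deleted gene *Nr3c1* (adjusted p = 0.293), though it called its probe A_52_P63106 (adjusted p = 0.0364). A lack of calls is thus weak evidence of no difference. The levels of the genotypes overlapped for all 10 genes, where 2.39% of all genes did not overlap. The log2 difference between genotypes was between −0.54 (*Ereg*, not well above background in these colons) and 0.21 (*Egf*), and for *Egfr* its 95% interval was −0.27 to 0.19.

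On DSS, the GR iKO and Flox colons were compared with the spread of the 6 DSS arrays alone. Again 0 of 10 genes were called, against 0% of all genes, and the brightest *Nr3c1* probe was not called either (limma adjusted p = 0.226). Unadjusted p values were under 0.05 for 3 of 10, against 17.2% of all genes, and the same 3 genes had levels that did not overlap between genotypes, all higher in GR iKO, against 10.7% of all genes. They were *Nrg1* (log2 difference 1.82 ± 0.46, limma adjusted p = 0.226), *Tgfa* (0.79 ± 0.21, adjusted p = 0.226) and *Egfr* (0.60 ± 0.23, adjusted p = 0.28). With the spread of all 14 arrays, which the water arrays make smaller, these 3 genes were called at adjusted p values of 0.0154, 0.0191 and 0.0339, against 6.4% of all genes called higher. When DSS arrays were also weighted for their larger spread, 0.0644% of all genes were called higher and none of the 3 was (adjusted p from 0.0988 to 0.147). The sizes moved with the processing, from 0.75 with normexp background correction to 3.05 with spike-in scaling for *Nrg1*, from 0.07 to 2.02 under the same settings for *Tgfa*, and from 0.34 with array quality weights to 1.82 with spike-in scaling for *Egfr*. In the 2 slides shared by DSS colons of both genotypes, the difference was 0.49 and 1.88 for *Nrg1*, 0.74 and 0.75 for *Tgfa*, and 0.51 and 0.65 for *Egfr*.

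The other ligands showed no such separation. On DSS the difference between genotypes was 0.16 (95% interval −0.62 to 0.94) for *Areg*, 0.09 (−1.03 to 1.21) for *Ereg*, 0.19 (−1.43 to 1.81) for *Epgn* and −0.31 (−0.84 to 0.22) for *Btc*. For *Hbegf* it was 0.79 (−0.29 to 1.87), and for *Egf* −0.91 (−3.44 to 1.62). These intervals leave room for differences of several fold or more for *Hbegf*, *Epgn* and *Egf*, and were widest for *Egf*. For the receptor *Erbb3* the probes disagreed, and none was called. Its brightest probe differed by −0.24 (−1.28 to 0.80) and A_51_P488243 by −0.43. By contrast, A_51_P414813 differed by 0.65, and A_52_P133607 by 0.78 without overlap between genotypes (limma adjusted p = 0.312).

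Whether the DSS response itself differed by genotype was tested as an interaction, for which the Flox response is subtracted from the GR iKO response. By the brightest probes 0 of 10 genes were called in limma, against 0.0644% of all genes called higher and 0.0386% called lower, and 3 of 10 had an unadjusted p under 0.05, against 20.7% of all genes. These were *Nrg1* (1.99 ± 0.53, adjusted p = 0.0879), *Tgfa* (0.77 ± 0.24, adjusted p = 0.125) and *Egfr* (0.64 ± 0.22, adjusted p = 0.142). Of the remaining probes, *Nrg1* A_52_P369761 was called, with an interaction of 2.50 ± 0.40 (adjusted p = 0.044). The size of this interaction is uncertain, because the probe was well above background on only 1 of the 8 water arrays. It passed the filter through the DSS arrays, so this p value is no independent support for a difference. The call was lost when any 1 of the 8 water arrays or Flox DSS replicate 2 was left out (adjusted p from 0.0642 to 0.119). It was also lost in 5 of 9 other alternatives, namely normexp background correction (0.77, adjusted p = 0.223), no filter on dim probes (0.0751), separate weights for water and DSS arrays (0.0949), slide as a block (0.126) and replicate as a block (0.114). On DSS alone, where 5 of 6 arrays read the probe well above background, the genotypes differed by 2.30 ± 0.35, which was not called (adjusted p = 0.226). Probe A_52_P369769 had an interaction of 1.65 ± 0.37 (adjusted p = 0.069). For A_52_P52635, again with water levels not well above background, it was 0.62 ± 0.42 (adjusted p = 0.454), and its genotypes overlapped on DSS. The comparison shares its water and DSS colons with the comparisons above.

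Cell type markers moved with these groups, and their part in the values of *Nrg1*, *Tgfa* and *Egfr* was not tested. Marker levels are means over a list of log2 signals relative to the water arrays. The 6 neutrophil markers ranged from 4.35 to 5.50 in Flox DSS and from 6.16 to 8.55 in GR iKO DSS colons, and the 6 macrophage markers from 0.27 to 1.18 and from 0.98 to 1.75. Smooth muscle (6 genes, 0.93 to 1.73 against −0.73 to 0.53) and glia (4 genes, 2.64 to 3.19 against 1.72 to 2.11) were lower in GR iKO DSS. Of these genes, 0 of 6 and 0 of 4 were called between genotypes by limma, against 0% of all genes. The mean of the 10 epithelial markers ranged from −0.69 to −0.10 in Flox DSS and from −0.31 to 0.31 in GR iKO DSS. These markers did not move together. On DSS in Flox 1 was called higher (*Krt20*, 0.58) and 3 lower (*Cdx1* furthest, −2.60), against 27.4% and 26.9% of all genes. In GR iKO 1 was called higher (*Krt20*, 1.07) and 1 lower (*Cdx1*, −1.59), against 24.5% and 22.6%. The 8 fibroblast markers rose in both genotypes, with ranges of 1.22 to 1.69 and 0.97 to 1.28. Of 8 squamous epithelium genes, which would mark anal skin, *Krt4*, *Trp63*, *Dsg3* and *Ivl* had no tested probe. The mean of the other 4 ranged from −0.17 to 0.80 in Flox DSS and from 0.07 to 0.48 in GR iKO DSS.

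Ranges of the remaining lists on DSS were 0.08 to 0.52 in Flox and −0.47 to 0.66 in GR iKO for mast cells (5 of 6 genes tested), 0.88 to 1.97 and 1.84 to 2.44 for type 2 innate lymphoid and regulatory T cells (4 of 5 genes tested, no tested probe for *Foxp3*), and 0.66 to 0.82 and 0.03 to 1.52 for endothelium (4 genes).

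The other genes of the pathway were read from lists of its parts. The counts of each list stand against the shares of all genes tested. In Flox 27.4% of all genes rose and 26.9% fell, and in GR iKO 24.5% rose and 22.6% fell. Of the remaining ligands and receptors, 3 of 5 were tested. *Nrg3*, a neuregulin that binds ERBB4, rose by 2.88 ± 0.22 in Flox and 2.15 ± 0.22 in GR iKO on the log2 scale. *Nrg4*, an ERBB4 ligand, fell by 1.41 ± 0.46 in GR iKO (limma adjusted p = 0.0256), and *Erbb2*, the co-receptor, differed by −0.36 and −0.07 without passing the test.

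Of 12 genes that release the ligands or control their release, 10 were tested. In Flox 5 rose and 3 fell, with a median log2 difference of 0.35, and in GR iKO 5 rose and 2 fell, with a median of 0.16. *Adam8*, a metalloprotease of myeloid cells, rose by 1.01 ± 0.32 in Flox and 2.87 ± 0.32 in GR iKO, *Furin*, which activates ADAM precursors, by 0.81 ± 0.11 and 1.30 ± 0.11, and *Rhbdf2*, which carries ADAM17 to the surface, by 0.44 ± 0.13 and 1.41 ± 0.13. *Rhbdl2*, a rhomboid protease, fell by 2.00 ± 0.37 and 1.02 ± 0.37. *Frmd8*, which stabilises the ADAM17 complex, fell by 0.56 ± 0.18 in Flox, and *Adam19* by 0.66 ± 0.25 in GR iKO. *Adam17*, the main sheddase of amphiregulin, epiregulin, HB-EGF and TGF-α, is named although its changes were not among the largest of the list. It fell by 0.27 ± 0.10 in Flox (limma adjusted p = 0.034) and rose by 0.27 ± 0.10 in GR iKO (adjusted p = 0.0435). The interaction of 0.54 ± 0.14 was not called (adjusted p = 0.084). No alternative setting was read for *Adam17*, and with spike-in scaling the median of all probes moved to −2.41 in Flox and −0.92 in GR iKO. Its opposite signs therefore hold only relative to the other probes of the array.

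Of 18 genes that restrain the receptors or the MAP kinase pathway, 16 were tested, of which 4 rose and 4 fell in Flox and 5 rose and 4 fell in GR iKO, with a median of 0.20 in both. The counts in Flox were near the shares of all genes. *Dusp6*, a phosphatase of ERK that ERK signalling induces, rose by 1.03 ± 0.21 in Flox and 1.37 ± 0.21 in GR iKO, and *Socs5* by 1.19 ± 0.13 and 0.53 ± 0.13. *Dusp4*, another MAP kinase phosphatase, rose by 1.17 ± 0.27 in GR iKO. *Cbl*, the ubiquitin ligase that directs EGFR to degradation, fell by 1.18 ± 0.19 and 0.58 ± 0.19, *Lrig3* by 0.93 ± 0.29 and 1.46 ± 0.29, and *Spry1* by 0.87 ± 0.23 in GR iKO.

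Of 23 adaptors and kinases that carry the signal, 22 were tested, of which 7 rose and 2 fell in Flox and 7 rose and 1 fell in GR iKO, with medians of 0.07 and 0.15. *Stat3* rose by 2.27 ± 0.16 in Flox and 1.97 ± 0.16 in GR iKO, and *Akt2* by 1.28 ± 0.11 and 1.01 ± 0.11. *Map2k1*, the MAP kinase kinase MEK1, fell by 1.17 ± 0.15 and 0.59 ± 0.15 and *Sos1* by 0.39 ± 0.13 in Flox.

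Of 15 genes that growth factor signalling is known to induce, 14 were tested, of which 8 rose and 2 fell in Flox and 9 rose and 2 fell in GR iKO, with medians of 0.72 and 1.59. *Ier3* rose by 2.71 ± 0.14 in Flox and 3.38 ± 0.14 in GR iKO, and *Plaur*, the urokinase receptor, by 2.43 ± 0.35 and 4.07 ± 0.35. The ETS factors induced by ERK in many tissues fell in both genotypes, *Etv4* by 2.91 ± 0.33 and 2.31 ± 0.33, and *Etv5* by 1.06 ± 0.32 and 0.89 ± 0.32. Most of these genes have inducers other than the EGF family. Between genotypes on DSS, 0 of the 65 tested genes of the 5 lists were called by limma, against 0% of all genes. Of these 65, 15 had an unadjusted p under 0.05, against 17.2% of all genes. In the interaction 0 were called, against 0.0644% of all genes called higher and 0.0386% called lower. There 17 had an unadjusted p under 0.05, against 20.7% of all genes.

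**Figure D4:**
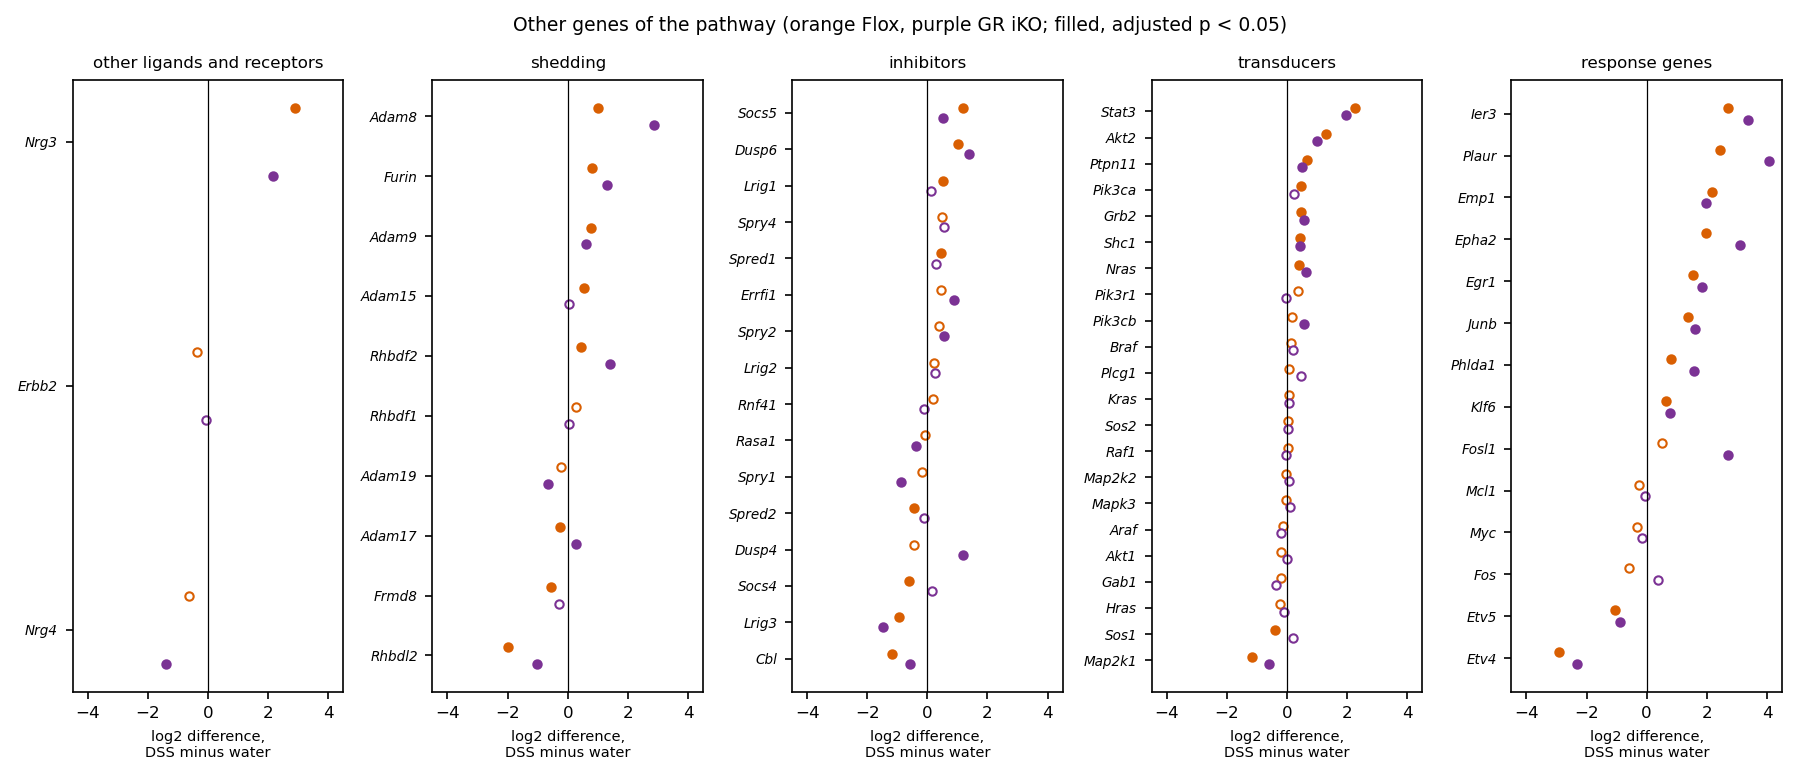
Log2 difference between DSS and water (x axis) of each tested gene of the 5 pathway lists in Flox (orange) and GR iKO colons (purple), each by its brightest probe; filled points had an adjusted p under 0.05 in limma. Each list held genes that rose and genes that fell, except the remaining ligands in Flox, and *Plaur* in GR iKO at 4.07 and *Etv4* in Flox at −2.91 were the extremes.

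To find genes with the most similar pattern, the root mean square difference of levels over the 14 arrays was taken after centring each gene on its mean. For *Ereg*, whose own root mean square deviation was 2.40, the nearest were *Il33* (0.46), *Serpina3n* (0.50) and *Vmn1r181* (0.50). For *Epgn* (2.60) they were *Timp1* (0.31), *Ccl7* (0.37) and *Serpina3n* (0.48), and for *Areg* (1.42) *Abcb11* (0.34), *Pde4b* (0.34) and *Ccn4* (0.38). *Serpina3n* belongs to a family of near-identical copies, and its signal may include theirs.

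*Egf* (1.32) was nearest to *Klk1b3* (0.36), *Zp1* (0.42) and *Klk1* (0.43). *Klk1b3* and *Klk1* are tissue kallikreins with many close copies, so that their probes may read several genes. *Nrg1* (0.91) was nearest to *Fut2* (0.36), *Sec1* (0.38) and *Ccr7* (0.39), and *Hbegf* (0.82) to *Phlda1* (0.29), *Gchfr* (0.32) and *Pde9a* (0.32). *Egfr* (0.60) was nearest to *Litaf* (0.14), *Bcl2l1* (0.16) and *Sema6d* (0.16), *Btc* (0.51) to *Csgalnact2* (0.13), *Ppfibp1* (0.13) and *Ccnd3* (0.14), and *Tgfa* (0.33) to *Cideb* (0.14), *Fam160a1* (0.16) and *Nat2* (0.16).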

How the data were processed

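The members of the EGF family and all lists were chosen with earlier results of these data known. The authors read the scans with Agilent Feature Extraction (version 12.0.0.7), and the processed intensities they deposited are background-subtracted, with no scaling between arrays. The value table deposited by the authors holds log2 values with the same quartiles on every array, and served as an alternative. Control spots (1639) and flagged spots were left out and spots of a probe averaged. Each log2 intensity had the 75th percentile of its array subtracted. Probes well above background on at least 3 of 14 arrays were tested. Of 29245 probes with a RefSeq accession, 28223 matched a symbol of the GRCm38.p6 table. The array was designed on another build, so no probe coordinates are given.

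Group means were fitted with limma 3.58.1 in R 4.3.3, with two-sided tests and Benjamini-Hochberg adjustment over all tested probes. DSS comparisons and the interaction used all 14 arrays, and genotype comparisons used the arrays of 1 treatment. Genes were read by the probe with the highest mean level, and all 10 members are named. For pathway lists, the 2 largest called rises and falls in each DSS comparison are named, and *Erbb2* and *Adam17* besides. A member of the list of adaptors and kinases is not reported here and was left out of its counts. The 3 genes nearest to each member called on DSS are given. The code was tested on simulated data, where the spread shared by water and DSS arrays gave more false calls in the DSS comparisons than the nominal share. The labels say nothing about cages or litters, so p-values measure the spread between these mice. The number of arrays limits the precision. Alternatives covered background correction, normalization, filters, spread, weights, slide and replicate blocks, probe choice and left-out arrays. Normexp used median signals. The replicate numbers were checked for pairing, and the deviations of same-numbered mice correlated above 0.1 in 7 of 12 pairs. This check cannot settle pairing, because many of these pairs shared a slide and no differently numbered mice were compared. The main fits were unpaired, with the replicate block as an alternative.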

Additional observations from a re-analysis of the deposited data

Results flagged for a closer look

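The DSS response of *Nrg1* by probe A_52_P369761 differed between genotypes in a test of the difference itself, with a log2 interaction of 2.50 ± 0.40 (limma adjusted p = 0.044). It was lower in all 3 Flox DSS colons (−4.40, −4.68 and −4.73) than in all 3 GR iKO DSS colons (−1.62, −2.94 and −2.33), and over the alternatives run its interaction lay between 0.77 and 3.93 with adjusted p values from 0.0046 to 0.223. The call was lost in 5 of 9 of these alternatives and in 9 of 14 fits without single arrays. Only 1 of the 8 water arrays read the probe well above background, so the size of its interaction is uncertain. The probe passed the filter through the DSS arrays, so its p values are no independent support for a difference. Probe A_52_P52635 of the same gene had an interaction of 0.62 ± 0.42 (adjusted p = 0.454).

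The response of *Tgfa* by its brightest probe also stood apart, because the mean of the Flox water colons lay above every Flox DSS colon and that of the GR iKO water colons lay below every GR iKO DSS colon. The interaction was 0.77 ± 0.24 and was not called by limma (adjusted p = 0.125). It ranged from 0.09 with normexp to 2.19 with spike-in scaling, and the second *Tgfa* probe rose in both genotypes, by 0.55 and 1.15.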

How the results depend on the processing

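Signal over background limits dim probes, so that *Ereg* on water allows only a bound. Without single arrays, the counts of members that rose were 5 in Flox and 7 in GR iKO throughout. In the main fits 27.4% and 24.5% of all genes rose. The count that fell in Flox was 1 (26.9% of all genes), and 2 with array quality weights (36.5%). It was 0 with normexp (23.6%), separate weights for water and DSS arrays (25.1%), or the mean of a gene's probes (27.7%). Without single arrays the count that fell in Flox ranged from 0 to 2 and that in GR iKO from 0 to 1. The count with a higher interaction ranged from 0 to 1 (*Nrg1*, 2.39, without Flox DSS replicate 4). The fit without that array called 3.42% of all genes higher and 5.14% lower in the interaction, against 0.0644% and 0.0386% in the main fit. Members higher in GR iKO on DSS numbered 3 with the spread of all 14 arrays (6.4% of all genes), 0 when that fit also had separate weights (0.0644%) and 1 with array quality weights (1.78%), which also gave 1 with a higher interaction (4.42%).

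Scaling to spiked-in transcripts, chosen after seeing the data, gave 2 higher and 7 lower in Flox (1.31% and 86.5% of all genes), 4 higher and 2 lower in GR iKO (4.71% and 48.9%), 4 higher in GR iKO on DSS (15.2%) and 7 with a higher interaction (64.3%). It turned the Flox differences of *Hbegf* (−1.51), *Btc* (−1.15), *Nrg1* (−2.27), *Egfr* (−1.55) and *Erbb3* (−2.11), and the GR iKO differences of *Tgfa* (−0.64), *Btc* (−0.20) and *Erbb3* (−0.85).

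*Tgfa* in Flox turned to 0.19 with normexp and 0.02 with the mean of its probes. *Nrg1* in Flox, not called, turned to −0.09 with the deposited value table, −0.09 with quantile normalization and −0.13 with array quality weights, ranged from −0.35 to 0.42 without single arrays, and was called at 1.24 with the mean of its probes, by which *Egfr* in Flox was no longer called (0.25). *Erbb3*, not called, turned in GR iKO to −0.04 with the value table, −0.03 with quantile normalization and −0.02 with slide as a block, ranged there from −0.35 to 0.52 without single arrays, and turned in Flox to −0.12 with the mean of its probes. The cause was not tested. Normexp moved the median of all probes to 0.22 in Flox and 0.13 in GR iKO.

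Same-numbered mice had correlations of −0.08 to 0.31, with 7 of 12 pairs above 0.1. With the replicate block, *Erbb3* in GR iKO was −0.04, *Nrg1* A_52_P369761 had an interaction of 2.69 that was no longer called (adjusted p = 0.114), and no count of members changed.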
